A study of Mus musculus with 17 samples.

Results

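The sarcomere and muscle atrophy genes described here are a named list of 31 genes, chosen for what their products do in striated muscle. The list was drawn up with earlier results of these data known. The count table holds 56748 annotated genes. All 31 were found by symbol, and all 31 passed the filter on low counts with 16195 genes in total. They fall into 6 groups by role, with 5 genes of the thick filament, 7 of the thin filament, 3 for titin and the M-band, 11 of the Z-disc, 2 that help fold and assemble myosin, and 3 muscle ubiquitin ligases.

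Poly(A) RNA was sequenced from the hearts of C57BL/6N mice aged 12 to 16 months, 9 of them hMut and 8 Ctrl. The hMut mice were homozygous for an inducible Polg allele and carried 1 Ckmm-cre transgene (genotype Polg iMut/iMut; +/Ckmm-cre). In these mice cre removes a floxed wild-type Polg coding sequence, after which the cell makes POLG D257A, a mitochondrial DNA polymerase with impaired proofreading. The Ckmm promoter is that of muscle creatine kinase and acts in heart and skeletal muscle, so cells in which it is silent keep the wild-type sequence. The labels call the other group Ctrl and give no genotype for it. The RNA came from heart tissue with its cell types mixed, and in such a sample fewer cardiomyocytes and less RNA per cardiomyocyte cannot be told apart.

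The sarcomere is the contractile unit of heart muscle. Thick filaments of myosin slide along thin filaments of actin, tropomyosin and troponin, with calcium binding to troponin C as the switch. Titin spans from the Z-disc, where thin filaments of neighbouring sarcomeres are anchored, to the M-band, where thick filaments are cross-linked. Muscle keeps this lattice in repair with dedicated chaperones and breaks it down through the ubiquitin-proteasome system, in which the ligases MuRF1 (Trim63) and atrogin-1 (Fbxo32) are the genes most often read as marks of muscle atrophy.

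Library totals ran from 34425783 to 46486964 counts in Ctrl and from 32915159 to 40175122 in hMut. Transcripts of the mitochondrial genome took 23.5% to 30.9% of the counts in Ctrl and 15.9% to 23.0% in hMut. Polg itself was called higher in hMut (log2 fold change 0.74, SE 0.10, adjusted p = 0.000448 from the quasi-likelihood test of edgeR, p-values adjusted by Benjamini-Hochberg), at 27.1 to 47.2 CPM (counts of a gene scaled to library size) in Ctrl and 47.0 to 65.1 CPM in hMut, and the gene counts do not separate mutant from wild-type transcripts. The defining markers of cardiomyocytes were abundant in every library, with 12 such genes outside the list summing to 50068 to 62155 CPM in Ctrl and 38607 to 61976 CPM in hMut. None of these 12 was called, and 1, Slc8a1 at 0.02, had a log2 fold change above 0. The lowest were Myh6, the main myosin heavy chain of the adult mouse heart (-0.34), the calcium pump gene Atp2a2 (-0.35) and its regulator Pln (-0.35). Fabp3 (-0.0046), Mb (-0.03), Actc1 (-0.05), Ryr2 (-0.05) and Casq2 (-0.09) were nearer to 0. Hearts hMut 6 and hMut 9 had the lowest sums of the 12, at 40194 and 38607 CPM, while the other 7 hMut hearts held 52538 CPM or more.

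The measured pattern across the 31 genes was a small downward shift with 1 gene past the test. Myh7b was called lower in hMut by edgeR, and no member was called higher, where 1.14% of all tested genes were called lower and 3.48% higher. The log2 fold change lay below 0 for 25 of the 31 members, for 11 of the 12 cardiomyocyte genes outside the list, and for 49.5% of all tested genes. Its median was -0.15 over the members and 0.0023 over all tested genes. An unadjusted p under 0.05 was reached by 17 members in the lower direction and by 1 in the higher direction, against 11.3% and 14.5% of all genes. For 28 of the 31 the log2 difference was smaller than 0.5 in size, as it was for 14774 of all 16195 tested genes.

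**Figure D1:**
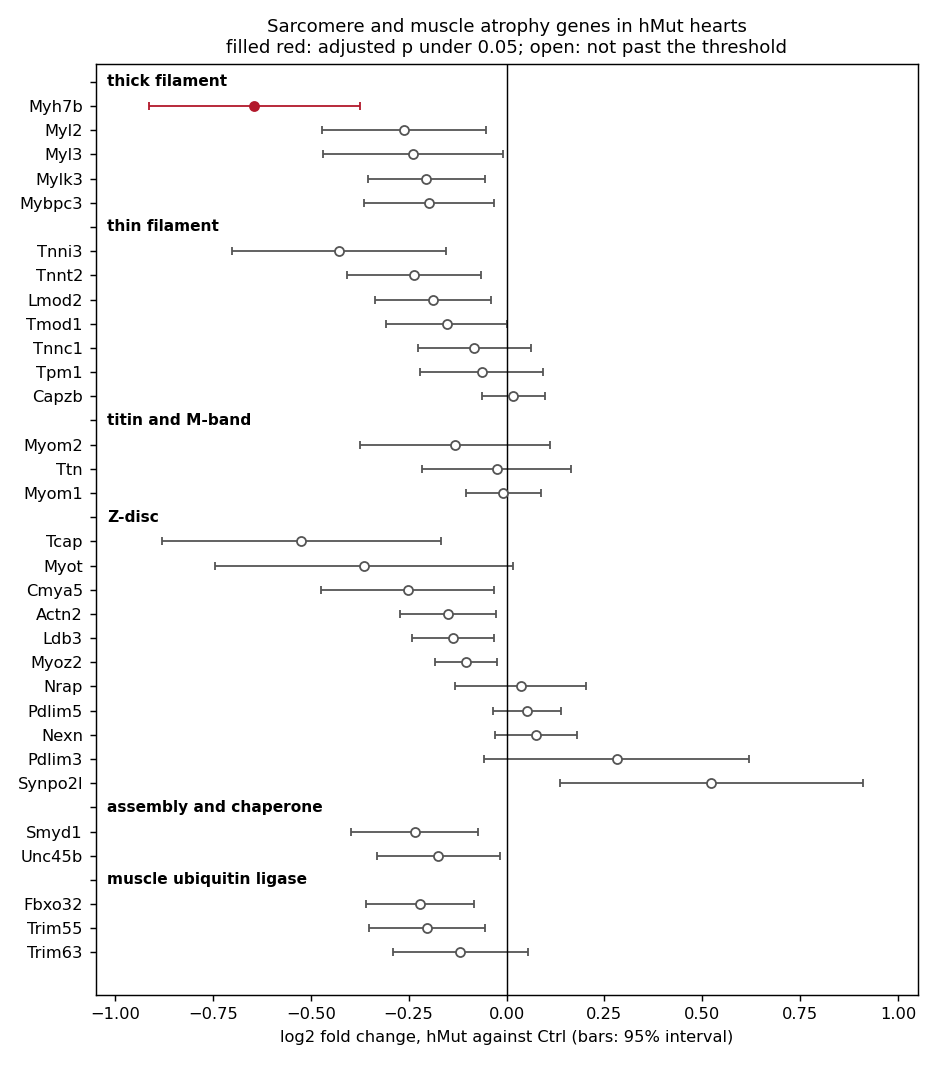
Log2 fold change of each member, hMut (n = 9) against Ctrl (n = 8), on the horizontal axis with its 95% interval from the edgeR fit, grouped by role. Myh7b, the filled point at -0.64, is the member past the adjusted threshold, and Tcap at -0.52 and Synpo2l at 0.52 lie farthest from 0 among the others.

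No member separated the groups completely. None had every hMut heart below every Ctrl heart, as 0.0617% of all tested genes did, and none had every hMut heart above every Ctrl heart, as 0.543% did. The number of calls depended on the method. DESeq2 called 7 members lower (Tnnt2, Tnni3, Tcap, Myoz2, Smyd1, Fbxo32 and Myh7b) and 1 higher (Synpo2l), where it called 3.12% of 16265 genes lower and 6.21% higher. The limma-voom fit with sample quality weights called 11 members lower and 0 higher, where it called 5.59% of all genes lower and 7.26% higher. DESeq2 and limma-voom had 6 of these calls in common, for Fbxo32, Myh7b, Smyd1, Tcap, Tnni3 and Tnnt2.

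The shift differed from heart to heart. In hMut 9, 22 of the 31 members lay below every Ctrl heart, and in hMut 6 this held for 19. At the other end, hMut 2 had 2 members below every Ctrl heart and 5 above. The other hMut hearts had 8 to 15 members below every Ctrl heart. How many of all tested genes lay outside the Ctrl range in each heart was not counted, so these counts do not set the members apart. Measured as the median log2 distance of the 31 members from their Ctrl means, hMut 9 stood at -0.38, hMut 6 at -0.30 and hMut 2 at 0.04, while the Ctrl hearts ranged from -0.11 to 0.04.

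**Figure D2:**
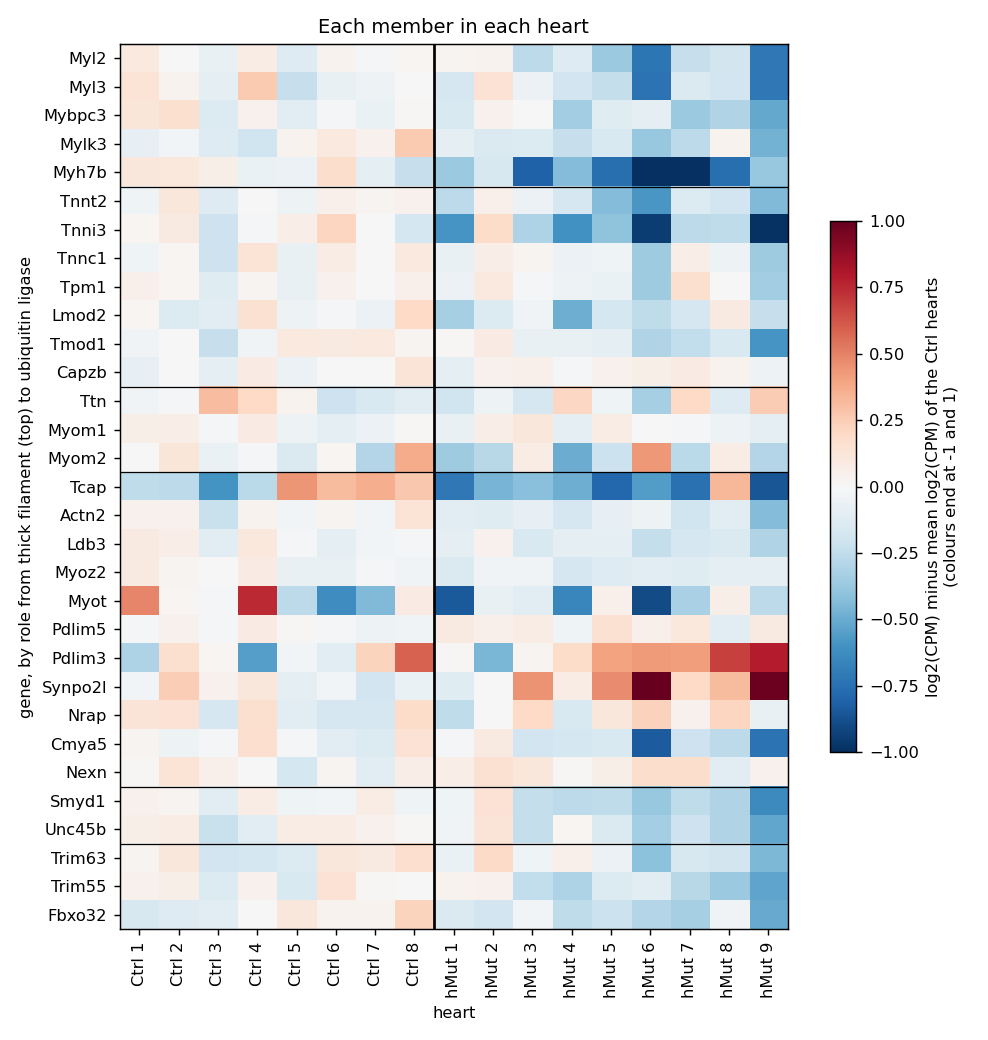
Each row is a member and each column a heart, with colour for log2(CPM) minus the mean log2(CPM) of the 8 Ctrl hearts, blue for lower and red for higher. The columns of hMut 6 and hMut 9 are the bluest, with medians of -0.30 and -0.38, and the Myh7b row is blue in all 9 hMut columns.

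The hearts with the lowest medians, hMut 6 and hMut 9, were also left out together. Myh7b was then the only member called by edgeR, where 0.712% of all genes were called lower. Of 31 log2 fold changes 23 were below 0, with a median of -0.12. Without hMut 2 the count of members called lower rose to 7 (Tnnt2, Tnni3, Ldb3, Smyd1, Trim55, Fbxo32 and Myh7b), and the share of all genes called lower rose with it, to 4.12%. It was 2 members and 2.19% of all genes without hMut 1, 2 members and 0.565% without hMut 3, and 3 members and 1.59% without hMut 8.

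The members also varied more among hMut hearts than among Ctrl hearts. The SD of log2(CPM) was larger in hMut for 26 of 31 members, with a median ratio of 1.46, where it was larger for 68.2% of 16134 genes with a median ratio of 1.25. With hMut 6 and hMut 9 left out, 17 of 31 members had the larger SD in hMut and the median ratio was 1.07, against 48.8% of all genes and a median ratio of 0.986. Those hearts had the lowest medians of the members' own values, so a smaller spread without them was partly fixed by the choice. Among hMut hearts the SD was widest for Synpo2l (SD 0.52 in hMut and 0.13 in Ctrl), Myh7b (0.38 and 0.13), Pdlim3 (0.38 and 0.35), Myot (0.37 and 0.46) and Tnni3 (0.37 and 0.14), and narrowest for Myoz2 (0.04 and 0.06).

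Some cell type markers were highest in these 2 hearts. Of 8 fibroblast markers, 7 had a log2 fold change above 0 and 0 were called. Their sum was 902 to 1064 CPM in Ctrl and 894 to 2063 CPM in hMut. It was 2063 CPM in hMut 6 and 1585 CPM in hMut 9, against at most 1168 CPM in the other hMut hearts. The highest hMut value was far above the highest Ctrl value for Col1a1 (213 and 81.8 CPM), Col1a2 (292 and 106), Col3a1 (571 and 238) and Postn (307 and 50.3). These values were closer for Dcn (537 and 504 CPM), Pdgfra (54.1 and 52.3), Tcf21 (9.07 and 7.84) and Lum (112 and 118). Of 8 immune markers 6 had a log2 fold change above 0, Cd79a (-0.71) and Ms4a1 (-1.27) were below 0, and 0 were called. The immune markers summed to 65.5 to 124 CPM in Ctrl. They reached 304 CPM in hMut 6 and 170.2 CPM in hMut 9, with no more than 98.8 CPM in the other hMut hearts. Endothelial markers were highest in other hearts. All 6 had log2 fold changes above 0 and 1, Kdr, was called higher (edgeR adjusted p = 0.0407), and they summed to 737 to 923 CPM in Ctrl and 806 to 1113 CPM in hMut, with 834 CPM in hMut 6 and 1035 CPM in hMut 9. Of 8 smooth muscle markers 7 had log2 fold changes above 0, while the called one, Smtn, was lower (edgeR adjusted p = 0.0174), and the sums were 234 to 380.0 CPM in Ctrl and 216 to 341 CPM in hMut. The part of these cells in the members' lower values was not tested. Red blood cell and adipocyte markers held 0 calls, with sums of 249 to 1378 CPM and 0.372 to 21.8 CPM in Ctrl and of 282 to 1088 CPM and 0.354 to 6.73 CPM in hMut. Among 8 atrial markers 1 was called, Bmp10, which was higher in hMut, and their sum was 59.0 to 179.7 CPM in Ctrl and 90.2 to 735 CPM in hMut, most of it Nppa, a natriuretic peptide gene that ventricles also use. The atrial myosin light chain Myl7 stayed at or under 0.51 CPM in every heart. The 12 skeletal muscle markers summed to at most 26.9 CPM in any heart, with Myh4 and Tnnc2 at 3 counts or fewer in every library.

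Summed over the list, the 31 genes made 46636 to 52658 CPM in Ctrl (mean 50616 ± 2123 SD, n = 8) and 36928 to 51905 CPM in hMut (44623 ± 4525 SD, n = 9). As a share of all counts in a library, mitochondrial transcripts included, the groups overlapped at 4.27% to 4.98% and 4.16% to 4.97%. CPM here is scaled by edgeR's TMM factors, which ran from 0.915 to 0.984 in Ctrl and from 0.956 to 1.15 in hMut, and the share is not.

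The thick filament held the called gene. Myh7b (ENSMUSG00000074652, GRCm39 chr2:155453132-155476227, plus strand) encodes a slow-type myosin heavy chain, and one of its introns carries the microRNA miR-499. Among the 31 members Myh7b ranked 29 by level per length, at 11.5 CPM per kb of exon in Ctrl (mean). Its lowest, median and highest values were 64.8, 76.0 and 85.7 CPM in Ctrl and 30.5, 45.0 and 68.1 CPM in hMut. In 8 of 9 hMut hearts it lay below every Ctrl heart, and hMut 2, at 68.1 CPM, was the exception. The log2 fold change was -0.64 (SE 0.13, 95% interval -0.91 to -0.37, edgeR adjusted p = 0.00812), so the level fell by 36.0%. Hearts hMut 6 and hMut 7 were the lowest at 30.5 and 33.9 CPM, whereas hMut 9, the lowest heart for many other members, held 58.3 CPM. All 27 alternative fits called Myh7b lower, with log2 fold changes from -0.72 to -0.58 and adjusted p from 9.22e-05 to 0.0204 (edgeR, DESeq2 or limma-voom).

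The Myh7b row shares its locus with Trpc4ap, a gene on the opposite strand that averaged 4445 counts per library against 2303 for Myh7b, and whether reads were counted by strand is not given in the sources used here. Trpc4ap had a log2 fold change of -0.10 (edgeR adjusted p = 0.118). The hairpin of miR-499 lies at GRCm39 chr2:155464800-155464878, in intron 19 of the 42-exon canonical Myh7b transcript in GENCODE, and its own row held 0 to 3 counts per library. Poly(A) libraries of long RNA do not measure mature microRNAs, so the level of miR-499 was not analysed here. Its sequence is shown because it comes from the called gene, beside the microRNAs that Myh6 and Myh7 carry in introns, with the seed (bases 2 to 8) in capitals (RefSeq). miR-208a-3p and miR-208b-3p share the whole seed, and miR-499-5p does not share it in full.
mmu-miR-499-5p: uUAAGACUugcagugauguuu
mmu-miR-208a-3p: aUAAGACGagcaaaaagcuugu
mmu-miR-208b-3p: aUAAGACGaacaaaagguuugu

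The other 4 thick filament genes all had log2 fold changes below 0 that missed the adjusted threshold. Myl2, the regulatory light chain of ventricular myosin, had the highest level per length of the list, at 3324 CPM per kb of exon in Ctrl (mean). It ran from 5932 to 6935 CPM in Ctrl (median 6512) and from 3931 to 6639 CPM in hMut (median 5532), with a log2 fold change of -0.26 (SE 0.10, edgeR adjusted p = 0.122). In 7 hMut hearts it lay below every Ctrl heart, with hMut 6 at 3931 CPM and hMut 9 at 3945 CPM. Myl3, the essential light chain, had a log2 fold change of -0.24 (SE 0.11, edgeR adjusted p = 0.179), and the same 2 hearts were lowest. Mybpc3, cardiac myosin-binding protein C, had -0.20 (SE 0.08, edgeR adjusted p = 0.132), and Mylk3, the kinase of the cardiac regulatory light chain, had -0.20 (SE 0.07, edgeR adjusted p = 0.0943).

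In the thin filament 6 of 7 genes had log2 fold changes below 0 and 0 were called. Tnni3, cardiac troponin I and the inhibitory subunit of troponin, had the smallest p of the group. Its lowest, median and highest values were 2803, 3258 and 3751 CPM in Ctrl and 1629, 2448 and 3660 CPM in hMut. Hearts hMut 6 and hMut 9 held 1672 and 1629 CPM, and 8 of 9 hMut hearts lay below every Ctrl heart, with hMut 2 inside the Ctrl range. The log2 fold change was -0.43 (SE 0.13, 95% interval -0.70 to -0.16), and the edgeR adjusted p of 0.0629 missed the threshold. Over the 27 alternatives its adjusted p ran from 0.00674 to 0.154 (edgeR, DESeq2 or limma-voom).

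The gene of troponin T, which binds the complex to tropomyosin, lay below every Ctrl heart in 7 hMut hearts. This gene, Tnnt2, ran from 5967 to 7071 CPM in Ctrl and from 4358 to 6760 CPM in hMut. Its log2 fold change was -0.24 (SE 0.08, edgeR adjusted p = 0.0934). Tnnc1, the calcium-binding subunit, had a log2 fold change of -0.08 (95% interval -0.23 to 0.06), and the antisense gene Nisch overlaps it with 11.5% of its counts. Tpm1, the main tropomyosin of heart and at 7106 to 8017 CPM in Ctrl the member with the most counts, had -0.06 (95% interval -0.22 to 0.09). Its value in hMut 7, 8625 CPM, was above every Ctrl heart, and in hMut 6 and hMut 9 it was below every Ctrl heart at 6041 and 6071 CPM.

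Genes for the filament ends were within a narrow range. Lmod2, a leiomodin that lengthens thin filaments at the pointed end, had a log2 fold change of -0.19 (SE 0.07, edgeR adjusted p = 0.115) with 7 hMut hearts below every Ctrl heart. Tmod1, which caps that end, had -0.15 (SE 0.07, edgeR adjusted p = 0.199). Capzb, a subunit of the barbed-end capping protein of the Z-disc, ran from 203 to 236 CPM in Ctrl and from 202 to 228 CPM in hMut, with a 95% interval of the log2 fold change from -0.06 to 0.10.

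Titin and the M-band genes had the median nearest to 0 of any role group, with 0 of 3 called, no unadjusted p under 0.05 and a median log2 fold change of -0.02. Ttn ran from 1085 to 1556 CPM in Ctrl and from 998 to 1496 CPM in hMut, and its 95% interval was -0.22 to 0.17. Myom1, the myomesin found in all striated muscle, had -0.0082 (95% interval -0.10 to 0.09). The signs of both genes turned in some alternatives, so no direction can be read for them. Myom2, the M-protein, had the smallest p of the group. Its lowest, median and highest values were 964, 1173 and 1530 CPM in Ctrl and 839, 979 and 1597 CPM in hMut, the highest being hMut 6, and the log2 fold change was -0.13 (SE 0.12, edgeR adjusted p = 0.474). Myom1 overlaps Myl12a on the other strand, which had 19.9% of its counts.

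The Z-disc group was split, with 6 of 11 log2 fold changes below 0, 5 above 0 and 0 called. Tcap, or telethonin, a small cap that joins titin molecules at the Z-disc, had the smallest p. Its lowest, median and highest values were 1022, 1582 and 2097 CPM in Ctrl and 855, 1051 and 1943 CPM in hMut. The groups overlapped, since 4 hMut hearts lay below every Ctrl heart and hMut 8 was among the highest hearts. The log2 fold change was -0.52 (SE 0.17, 95% interval -0.88 to -0.17, edgeR adjusted p = 0.0781). Without hMut 8 it was -0.67 and passed the edgeR threshold (adjusted p = 0.0103). Over the 27 alternatives the adjusted p of Tcap ran from 0.0103 to 0.167, and 3 of them called it lower (edgeR, DESeq2 or limma-voom). Ctrl 1 to 4 held 1022 to 1296 CPM and Ctrl 5 to 8 held 1869 to 2097 CPM.

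Synpo2l, which encodes the actin-associated Z-disc protein CHAP, had higher values in hMut without passing the test. It ran from 141 to 190.2 CPM in Ctrl (median 158) and from 148 to 464 CPM in hMut (median 201). The 2 highest values were those of hMut 6 at 464 CPM and hMut 9 at 317 CPM, and 5 hMut hearts lay above every Ctrl heart. This gave a log2 fold change of 0.52 (SE 0.18, edgeR adjusted p = 0.0992), and over the 27 alternatives it ran from 0.21 to 0.59. Pdlim3, the actinin-associated LIM protein and the member with the lowest level per length (2.22 CPM per kb of exon in Ctrl), had 0.28 (SE 0.16, edgeR adjusted p = 0.269). Its relative Pdlim5 had 0.05 (95% interval -0.03 to 0.14).

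The anchoring genes of the Z-disc differed by little. Actn2, sarcomeric alpha-actinin, the main cross-linker there, had a log2 fold change of -0.15 (SE 0.06, edgeR adjusted p = 0.125), and all 9 hMut hearts lay below the Ctrl median. Ldb3, or Cypher, had -0.14 (SE 0.05, edgeR adjusted p = 0.11). Myoz2, or calsarcin-1, was tight in both groups, at 807 to 902 CPM in Ctrl and 759 to 829.1 CPM in hMut, and had a log2 fold change of -0.10 (SE 0.04, edgeR adjusted p = 0.108) with 7 hMut hearts below every Ctrl heart. Cmya5, or myospryn, had -0.25 (SE 0.11, edgeR adjusted p = 0.147) and stood at 340 CPM in hMut 6 and 363 CPM in hMut 9 against 505 to 644 CPM in the other hMut hearts. Myot, or myotilin, varied most among Ctrl hearts, from 76.3 to 198 CPM, and had -0.36 (SE 0.18, edgeR adjusted p = 0.212), which was -0.23 without Ctrl 4 and -0.18 by limma-voom. Nexn and Nrap, for nexilin and the nebulin-related anchoring protein, had log2 fold changes of 0.08 (95% interval -0.03 to 0.18) and 0.04 (95% interval -0.13 to 0.20).

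Both genes for myosin assembly had log2 fold changes below 0, and neither was called. Smyd1, a muscle methyltransferase needed to build sarcomeres, had the smaller p. Its lowest, median and highest values were 719.5, 777 and 819 CPM in Ctrl and 498, 649 and 857 CPM in hMut. In 7 hMut hearts it lay below every Ctrl heart, with hMut 9 lowest, while hMut 2 lay above every Ctrl heart. Its log2 fold change was -0.23 (SE 0.08, 95% interval -0.40 to -0.07, edgeR adjusted p = 0.0819). Smyd1 overlaps Krcc1 on the other strand, which had 7.73% of its counts and was called higher in hMut (log2 fold change 0.29, edgeR adjusted p = 0.0253). Unc45b, the chaperone that folds the myosin head, had -0.17 (SE 0.08, edgeR adjusted p = 0.157).

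None of the 3 muscle ubiquitin ligases was called in either direction, and all 3 had log2 fold changes below 0. Fbxo32, atrogin-1, ran from 185 to 242 CPM in Ctrl (median 209.8) and from 146 to 203 CPM in hMut (median 179). All 9 hMut hearts lay below the Ctrl median and 6 below every Ctrl heart, with hMut 9 lowest. Ctrl 1 to 4 held 185 to 207 CPM and Ctrl 5 to 8 held 213 to 242 CPM. The log2 fold change was -0.22 (SE 0.07, 95% interval -0.36 to -0.08, edgeR adjusted p = 0.0601), and the adjusted p ran from 0.0287 to 0.159 over the 27 alternatives, 5 of which called it lower (edgeR, DESeq2 or limma-voom).

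Trim63, MuRF1, ran from 199.6 to 256 CPM in Ctrl (median 238) and from 167 to 261 CPM in hMut (median 218.5). Its log2 fold change was -0.12 (SE 0.08, 95% interval -0.29 to 0.05, edgeR adjusted p = 0.359). Without hMut 6 and hMut 9 it was -0.04 (SE 0.07, edgeR adjusted p = 0.803). Trim55, MuRF2, a titin-associated relative, had -0.20 (SE 0.07, 95% interval -0.35 to -0.05, edgeR adjusted p = 0.0943) and ran from 93.9 to 115 CPM in Ctrl and from 72.4 to 108 CPM in hMut. Hearts hMut 6 and hMut 9 held Trim63 at 172 and 167 CPM, below every Ctrl heart, as 19 and 22 of the 31 members were there. Trim55 was 96.7 CPM in hMut 6, inside the Ctrl range, and 72.4 CPM in hMut 9.

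**Figure D3:**
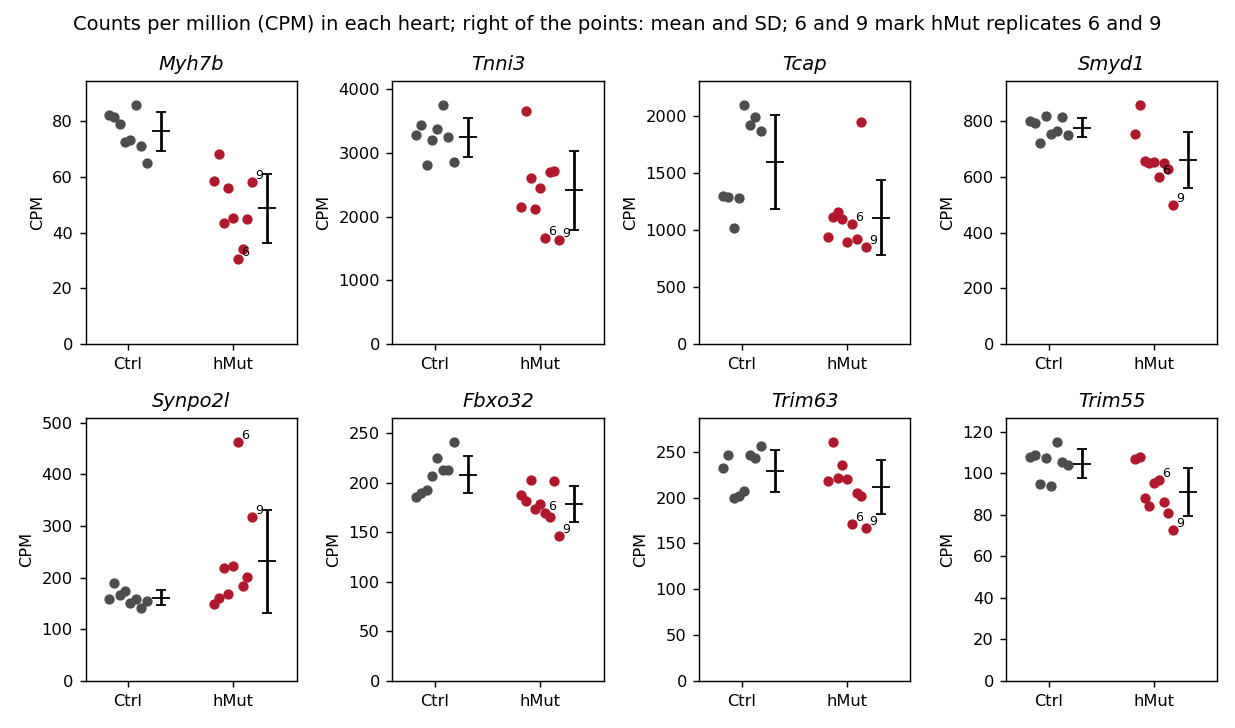
CPM of 8 members in each heart (grey: 8 Ctrl hearts; red: 9 hMut hearts), with the mean and SD at the right of each group and hMut 6 and hMut 9 numbered; each axis starts at 0. Synpo2l reached 464 and 317 CPM in those hearts, and Trim63 was 172 and 167 CPM there.

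Ratios of related members within a heart were also taken, as log2 differences of CPM with no test. Fbxo32 to Trim63 was -0.14 ± 0.17 (SD, n = 8) in Ctrl and -0.23 ± 0.18 (SD, n = 9) in hMut, a difference within the spread. Myl2 to Myl3 was 0.34 ± 0.10 in Ctrl and 0.32 ± 0.12 in hMut. Unc45b to Smyd1 was -2.07 ± 0.11 and -2.01 ± 0.09. Each of these differences was smaller than 1 SD of either group. Myom2 to Myom1 was -0.30 ± 0.18 in Ctrl and -0.44 ± 0.27 in hMut, with 5 hMut hearts below every Ctrl heart and hMut 6 above all of them. Trim63 to Trim55 was 1.13 ± 0.11 and 1.21 ± 0.19, and Pdlim3 to Pdlim5 was -6.18 ± 0.37 and -5.95 ± 0.40.

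Promoter sequence was available from RefSeq for 25 of the 31 members, as the 250 bases before an annotated start. Motifs were searched on both strands, and a match describes letters and not a bound site. GTAAACA, the core of FOXO sites, was in 1 member, Trim63, or 4% of the members and 3.54% of all genes with a promoter. The GATA motif AGATAA was in 6 members (24%, and 11.4% of all), among them Myh7b. The muscle motif CATTCC, or MCAT, was in 8 (32%, and 14.4% of all). TGATGNAA, the letters of the ATF4 element, was in 1 (4%, and 3.91% of all), Pdlim3. A CArG box was in 3 (12%, and 1.62% of all), and a MEF2 site in 4 (16%, and 3.42% of all). The stretches before Myh7b, the called member, and Trim63, the ligase with a FOXO core, are printed 5′ to 3′ on the plus strand with these motifs in capitals, GATA in Myh7b and then FOXO core and MCAT (both on the reverse strand) in Trim63. They were matched once each to GRCm39, at chr2:155452913-155453095 and chr4:134042181-134042392, and stop before the first annotated base of the gene.
Myh7b: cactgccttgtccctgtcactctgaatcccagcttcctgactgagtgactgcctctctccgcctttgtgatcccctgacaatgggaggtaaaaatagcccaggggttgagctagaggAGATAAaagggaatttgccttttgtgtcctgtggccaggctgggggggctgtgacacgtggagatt
Trim63: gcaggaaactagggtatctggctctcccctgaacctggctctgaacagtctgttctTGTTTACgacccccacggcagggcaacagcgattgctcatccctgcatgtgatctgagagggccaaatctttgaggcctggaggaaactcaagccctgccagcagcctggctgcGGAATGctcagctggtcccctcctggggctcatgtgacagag

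The rest of the pathway was read from 5 lists of 139 other muscle genes, of which 130 were tested. By edgeR 5 were called lower (3.85%, beside 1.14% of all tested genes) and 12 higher (9.23%, beside 3.48%), and the median log2 fold change over the 130 was -0.01. Without hMut 6 and hMut 9 the counts were 3 lower and 6 higher, and with any 1 heart left out they ran from 1 to 13 lower and from 7 to 18 higher, both highest without hMut 2. These lists too were drawn up with earlier results of these data known.

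Among 28 tested genes of other contractile filament proteins, 2 were called higher (7.14%, beside 3.48% of all genes) and 2 lower (7.14%, beside 1.14%). Acta1, the skeletal alpha-actin that the fetal heart also makes, was the largest of these, at 197 to 363 CPM in Ctrl (median 281) and 134 to 1386 CPM in hMut (median 673), with a log2 fold change of 1.31 (SE 0.35, edgeR adjusted p = 0.0385). It lay above every Ctrl heart in 7 of 9 hMut hearts, and hMut 2 lay below all of them. Tpm4, a non-muscle tropomyosin, was higher by 0.31 (SE 0.08, edgeR adjusted p = 0.0365). Tnnt1, slow skeletal troponin T, changed by -0.48 (SE 0.13, edgeR adjusted p = 0.0381), and Tmod4, a skeletal tropomodulin, by -0.40 (SE 0.11, edgeR adjusted p = 0.0435).

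Of 24 tested genes of other Z-disc and costamere proteins, 4 were called and all 4 were higher (16.7%, beside 3.48% of all genes). They were Actn4, non-muscle alpha-actinin (log2 fold change 0.36, SE 0.07), Pdlim7 (0.28, SE 0.06), Xirp2, an actin-binding protein of intercalated discs (0.66, SE 0.16), and Parva, which links integrins to actin (0.14, SE 0.04). Among 18 tested genes for folding and assembly, 1 was called lower (5.56%, beside 1.14% of all genes) and 2 higher (11.1%, beside 3.48%). Palld, palladin, was lower (-0.31, SE 0.06), and the chaperones Hspb1 (0.39, SE 0.08) and Hsp90aa1 (0.56, SE 0.12) were higher. The 22 muscle transcription and splicing factors held 2 calls, both lower (9.09%, beside 1.14% of all genes). They were the RNA-binding regulators of splicing Rbm20 (-0.23, SE 0.06, edgeR adjusted p = 0.0451) and Rbm24 (-0.22, SE 0.06, edgeR adjusted p = 0.0487).

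The list of 38 other atrophy and protein breakdown genes held 4 calls, all higher (10.5%, beside 3.48% of all genes). Gadd45a, a stress-induced gene that takes part in muscle atrophy, ran from 11.2 to 17.2 CPM in Ctrl and from 18.7 to 33.1 CPM in hMut, so every hMut heart was above every Ctrl heart, and its log2 fold change was 0.80 (SE 0.13, edgeR adjusted p = 0.00156). Ctsl, a lysosomal protease, was higher by 0.46 (SE 0.09, edgeR adjusted p = 0.00539) and Sqstm1, the autophagy receptor p62, by 0.54 (SE 0.10, edgeR adjusted p = 0.00551). Eif4ebp1, an inhibitor of translation, was higher by 0.44 (SE 0.11, edgeR adjusted p = 0.0309). The other 34 genes of that list were not past the threshold, and its median log2 fold change was -0.06.

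**Figure D4:**
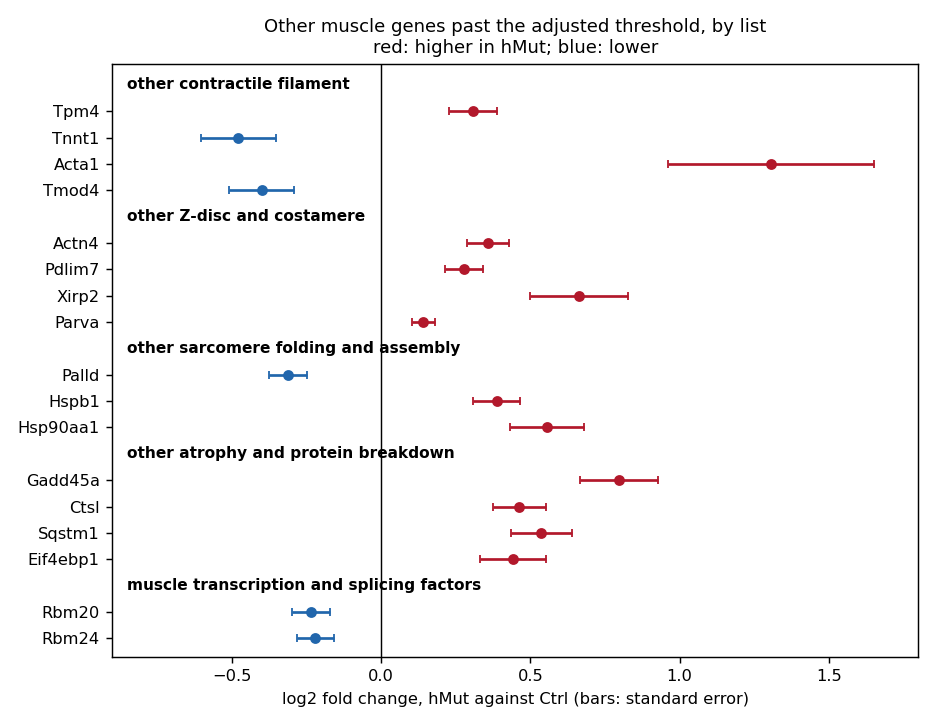
Log2 fold change with its standard error for the 17 genes of the other muscle lists past the adjusted edgeR threshold, red for the 12 higher in hMut and blue for the 5 lower. Acta1 at 1.31 and Gadd45a at 0.80 lie farthest to the right, and Tnnt1 at -0.48 farthest to the left.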

How the data were processed

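Per the labels and the study's methods, poly(A) libraries were made from heart RNA and the reads were trimmed with fastp. HISAT2 (version 2.2.1) was the aligner, GRCm39 the genome build and featureCounts (version 2.0.6) the counter. The authors deposited raw counts, 1 column per heart; whether strand was used is not given in the sources used here. Groups came from the sample titles. Total depth is in the report, and every member had counts in every heart.

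Raw counts were tested with edgeR (version 4.0.16, R 4.3.3): filterByExpr, TMM factors, quasi-likelihood F test of hMut (n = 9) against Ctrl (n = 8) on all 16195 genes, Benjamini-Hochberg adjustment, threshold 0.05. CPM used TMM library sizes; CPM per kb used the file's exonic gene length. SE was taken as the log2 fold change over the root of F, and 95% intervals as 2.097 SE. The fit was tested on simulated data first. Alternatives were DESeq2 (version 1.42.0), limma-voom (limma 3.58.1) with quality weights, RLE and upper-quartile scaling, other filters, nuclear protein-coding genes alone, sex read from Xist and Y-linked counts as a covariate (3 Ctrl and 2 hMut hearts read as female), the replicate number as a block, and leaving hearts out.

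The members, the other lists and the tests were chosen with earlier results of these data known. All 31 members could be named. Values per heart were given for members past the threshold and, in a role group with none, the member of smallest p; other lists name up to 6 genes past the threshold, in order of p. Some further members were given by heart after their values were seen. Nothing in the labels says more of the replicates than that each is a heart, so p-values measure the spread between these hearts. Protein sequences were not used here, so the planned identity between related members was not computed.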

Additional observations from a re-analysis of the deposited data

Results flagged for a closer look

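Each member's log2(CPM) was checked in both groups for a heart that stands apart from the rest by Dixon's test at the 95% level. Of 62 such checks 4 were past the critical value, and chance alone gives about 5%. Tcap in hMut 8 was 1943 CPM, and the next highest hMut heart held 1157 CPM. Actn2 in hMut 9 was 1284 CPM, with the next lowest hMut heart at 1509 CPM. Actn2 in Ctrl 3 was 1488 CPM, below 1703 CPM in the next Ctrl heart, and Tmod1 in the same Ctrl heart was 216 CPM, below 247 CPM in the next.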

How the results depend on the processing

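Of 837 member log2 fold changes recomputed under 27 alternatives, 798 kept their direction and their side of the threshold, 27 passed it anew, 0 lost it and 12 changed sign. The sign changes were Ttn at 0.020 and Myom1 at 0.018 (limma-voom), Nrap at -0.0068 (sex as a covariate), Myom1 at 0.0018 (replicate block), and Tpm1 at 0.010 and Myom1 at 0.0023 (hMut 6 and hMut 9 left out). With 1 heart left out at a time, Ttn ran from -0.062 to 0.023 and Myom1 from -0.023 to 0.0026. Genes called higher and lower over the whole table numbered 564 and 185 in the main fit, 1010 and 507 by DESeq2, 1175 and 906 by limma-voom, 395 and 68 without a filter on low counts, 160 and 25 with the replicate block, and 316 and 115 without hMut 6 and hMut 9. With 1 heart left out they ran from 326 to 1128 and from 69 to 664. Members called lower were 7 by DESeq2, 11 by limma-voom and 1 to 7 with a heart left out, and DESeq2 called 1 higher. Members with every hMut heart below every Ctrl heart were 0 to 2 with a heart left out. The share of all tested genes for which this held is not given for those fits. Of the other muscle genes, 13 were called lower by DESeq2, 21 higher and 15 lower by limma-voom, 1 lower without the filter, 2 lower with sex as a covariate, 3 higher and 1 lower with the replicate block, 6 higher and 3 lower without hMut 6 and hMut 9, and 7 to 18 higher and 1 to 13 lower with a heart left out. The cause of these changes was not tested. The deviations of same-numbered hearts from the means of the 2 groups had correlations of -0.225 to 0.339 over 8 pairs, and 1 of 8 was best with its own number. The labels do not say whether the numbers pair the hearts, and these correlations cannot settle it. The member with the fewest counts, Pdlim3, had at least 240 counts in every library, and Myh7b at least 1248.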

Other observations

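Tcap and Myot were the members with the largest spread among Ctrl hearts (SD of log2(CPM) 0.39 and 0.46). Tcap was 1022 to 1296 CPM in Ctrl 1 to 4 and 1869 to 2097 CPM in Ctrl 5 to 8, with no value between, and 8 of the 9 hMut hearts held 855 to 1157 CPM. Myot was 116 to 198 CPM in Ctrl 1 to 4 and 76.3 to 125 CPM in Ctrl 5 to 8. The same Ctrl hearts were also apart, without overlap, for Fbxo32 (185 to 207 and 213 to 242 CPM) and Mylk3 (619 to 697 and 731 to 852 CPM). This held too for Tmod1 (216 to 252 and 257 to 271 CPM) and, in the other direction, Myoz2 (849 to 902 and 807 to 845 CPM). In hMut, Fbxo32 was 146 to 203 CPM and Mylk3 513 to 730 CPM, so both overlapped Ctrl 1 to 4. The labels name no batch, litter or day for these hearts, and the grouping was noticed in the values, so no test was made on it.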
